A study of Mus musculus with 2 samples.

Results

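The genes described here are 10 genes whose human counterparts are tied to retinal degeneration or that were named with them in developing cones: *Aipl1*, *Rd3*, *Rpgrip1*, *Cdhr1*, *Prph2*, *Rom1*, *Abca4*, *Tulp1*, *Fam161a* and *Ccdc136*. They were chosen by symbol, with earlier results of these data known. Each symbol matched 1 gene of the 28692 listed, and all 10 had counts in both libraries. The cells came from mouse embryos of the reporter strain Tg(Lhx4::EGFP)KN199Gsat/Mmucd, in which a bacterial artificial chromosome drives GFP from *Lhx4* regulatory sequence, kept as heterozygotes. Retinas of GFP-positive E14.5 embryos of 2 litters were combined, dissociated and sorted by GFP, and each gate gave 1 droplet library. Both libraries therefore share genotype, stage, litters and dissociation, and differ in the sort gate. The question was how far genes needed by the mature photoreceptor are already transcribed in cones soon after these cells are born.

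Photoreceptors detect light in the outer segment, a stack of membrane discs that is joined to the cell body by a narrow connecting cilium. Proteins made in the cell body must be folded, sorted and carried through this cilium, and the discs must be shaped and kept free of toxic retinoids. Genes for each of these steps are known causes of Leber congenital amaurosis, retinitis pigmentosa, cone-rod dystrophy or Stargardt disease. At E14.5 the mouse retina holds dividing retinal progenitor cells (RPCs), newborn cones, retinal ganglion cells (RGCs), amacrine cells (ACs) and horizontal cells (HCs), and outer segments have not yet formed.

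Transcripts were counted by their molecular barcodes (UMIs) in each cell. The filter on cells left 3689 GFP+ cells, which held 15503658 UMIs at a median of 3894 a cell, and 3389 GFP- cells, which held 30094636 at a median of 8848. The upper limit of the filter, 3500 genes per cell, removed 39 GFP+ and 1055 GFP- cells. The libraries shared 15 barcodes among the kept cells. The gate was checked on known genes: the cone transducin subunit *Gngt2* stood at 1865 CPM in the GFP+ and 8.27 CPM in the GFP- library, *Lhx4* at 139 and 1.66 CPM, and the ganglion cell gene *Pou4f2* at 0.581 and 44.7 CPM. Levels are given per 1000000 UMIs (CPM). The 95% intervals in brackets are exact: Poisson for levels, Clopper-Pearson for shares of cells and conditional for ratios. With a single library per gate they cover counting error only, a difference has no replicate check, and no p-value is given. The libraries tag the 3′ end of each transcript and UMIs count molecules, so levels were not divided by gene length.

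Promoter sequence is shown for 3 of the 10 genes, those that hold the letters TAATCC, the core bound by the homeodomain factors Crx and Otx2, on either strand within 250 bases before and 50 after a RefSeq transcription start. The matches shown stand on the strand opposite to the gene and read GGATTA below, in capitals. RefSeq (GRCm38.p6) listed 15 starts for the 10 genes, of which 3 held the letters. Over all 32851 promoters the share was 7.06%, and 8.14% of 27025 genes had at least 1 such promoter. The letters shown began 53 bases before the start in *Aipl1*, 58 in *Abca4* and 28 in *Rpgrip1*, and *Aipl1* had another match, not shown, at 10 bases after the start. GENCODE M21 begins the *Rpgrip1* gene at 52110704, so by that annotation the *Rpgrip1* letters lie inside the gene. The stretches shown, 5′ to 3′ on the gene's strand, are chr11:72037530-72037629 on the minus strand, chr3:122044340-122044439 on the plus strand and chr14:52110863-52110892 on the plus strand.
Aipl1: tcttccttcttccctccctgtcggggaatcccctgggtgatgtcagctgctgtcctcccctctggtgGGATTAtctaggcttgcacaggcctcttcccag
Abca4: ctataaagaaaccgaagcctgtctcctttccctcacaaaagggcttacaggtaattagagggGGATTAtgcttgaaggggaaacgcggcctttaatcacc
Rpgrip1: gctaaaaggcctGGATTAgtgtctcctcta
No match in the other 7 says only that these letters are not in these windows. *Crx* stood at 824 CPM in the GFP+ and 20.6 CPM in the GFP- library, and *Otx2* at 1486 and 97.2 CPM.

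Of the 10 genes, 9 were at least 2-fold higher in the GFP+ than in the GFP- library, and 8 were at least 10-fold higher. Of all 15236 genes with at least 10 UMIs, 23.0% were at least 2-fold higher. No share of all genes is given for 10-fold, but the lowest of those 8, *Ccdc136* (ratio 10.1), ranked 523 of the 15236 genes by ratio. Together the 10 genes gave 22782 UMIs (1469 CPM) in the GFP+ and 1752 UMIs (58.2 CPM) in the GFP- library. Their median log2 ratio was 4.95, beside 0.30 over all genes tested, so that the whole scale sat slightly to the GFP+ side. *Fam161a* was the exception to the 2-fold limit. Because the 10 were chosen with earlier results of these data known, these values describe them and are no test of retinal degeneration genes as a class.

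**Figure D1:**
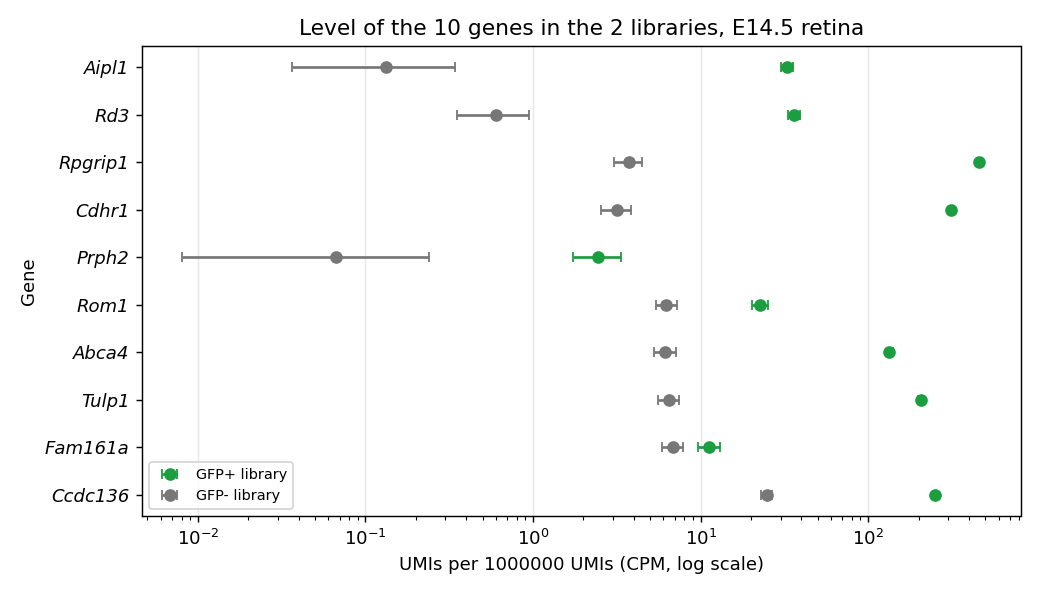
Level of each gene in CPM (log axis) in the GFP+ library (green) and the GFP- library (grey), with bars for 95% exact Poisson intervals that cover counting error only. In the GFP+ library the levels run from 2.45 CPM for Prph2 to 459 CPM for Rpgrip1, and the intervals of the libraries do not overlap for any of the 10 genes.

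*Aipl1* and *Rd3* act on the enzymes of the light response before these reach the outer segment. *Aipl1*, a cochaperone that the cone and rod phosphodiesterase needs to fold, lies on chromosome 11 at 72027963 to 72037509, minus strand (GENCODE M21, GRCm38). It had 508 UMIs in the GFP+ library (32.8 CPM, 30 to 35.7) and 4 UMIs in 4 cells of the GFP- library (0.133 CPM, 0.0362 to 0.340), a ratio of 247 (95.7 to 908). Among the 15236 genes it ranked 52 by ratio, the highest place of the 10. *Rd3*, which holds retinal guanylate cyclase inactive and takes it to the outer segment, lies on chromosome 1 at 191977370 to 191988283, plus strand. It had 559 UMIs (36.1 CPM, 33.1 to 39.2) in the GFP+ and 18 UMIs (0.598 CPM, 0.354 to 0.945) in the GFP- library, a ratio of 60.3 (37.8 to 102). Both were thus close in level within the GFP+ library, with overlapping intervals, and both were near 0 outside it.

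*Rpgrip1*, *Tulp1* and *Fam161a* serve the cilium and traffic through it. *Rpgrip1*, the scaffold that holds Rpgr in the connecting cilium, lies on chromosome 14 at 52110704 to 52163546, plus strand. It was the most abundant of the 10, with 7110 UMIs (459 CPM, 448 to 469) in the GFP+ and 112 UMIs (3.72 CPM, 3.06 to 4.48) in the GFP- library, a ratio of 123 (102 to 150). *Tulp1*, a tubby-like protein needed to carry opsins to the outer segment, lies on chromosome 17 at 28351515 to 28365222, minus strand. It had 3188 UMIs (206 CPM, 199 to 213) in the GFP+ and 194 UMIs (6.45 CPM, 5.57 to 7.42) in the GFP- library, a ratio of 31.9 (27.6 to 37.1). *Fam161a*, a microtubule-binding protein of the cilium and its basal body, lies on chromosome 11 at 23007531 to 23030788, plus strand. It had 175 UMIs (11.3 CPM, 9.68 to 13.1) in the GFP+ and 205 UMIs (6.81 CPM, 5.91 to 7.81) in the GFP- library. Its ratio of 1.66 (1.35 to 2.04) is a log2 ratio of 0.73, beside a median of 0.30 over all genes. As mean UMIs per cell the direction turned, to 0.784, on a scale where the median log2 ratio of all genes was -0.78. The ciliary genes thus fell on both sides of the 2-fold limit.

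*Cdhr1*, *Prph2*, *Rom1* and *Abca4* belong to the discs. *Cdhr1*, the photoreceptor cadherin at the edge of newly forming discs, lies on chromosome 14 at 37077857 to 37098347, minus strand. It had 4875 UMIs (314 CPM, 306 to 323) in the GFP+ and 95 UMIs (3.16 CPM, 2.55 to 3.86) in the GFP- library, a ratio of 99.6 (81.3 to 123). *Prph2* and *Rom1* encode a pair of related tetraspanins that bend the disc rim. *Prph2*, on chromosome 17 at 46910459 to 46924933, plus strand, was the least abundant, with 38 UMIs (2.45 CPM, 1.73 to 3.36) in 37 GFP+ cells and 2 UMIs in a single GFP- cell (0.0665 CPM, 0.00805 to 0.240). Its ratio of 36.9 is loosely held, with an interval from 9.53 to 316. *Rom1*, on chromosome 19 at 8927391 to 8929356, minus strand, had 350 UMIs (22.6 CPM, 20.3 to 25.1) in the GFP+ and 188 UMIs (6.25 CPM, 5.39 to 7.21) in the GFP- library, a ratio of 3.61 (3.02 to 4.34). In the GFP+ library the partner *Rom1* was therefore more abundant than *Prph2*, with intervals far apart. *Abca4*, the disc flippase that clears retinal adducts, lies on chromosome 3 at 122044443 to 122180123, plus strand. It had 2085 UMIs (134 CPM, 129 to 140) in the GFP+ and 185 UMIs (6.15 CPM, 5.29 to 7.10) in the GFP- library, a ratio of 21.9 (18.8 to 25.6).

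*Ccdc136* encodes a coiled-coil protein and lies on chromosome 6 at 29396309 to 29426994, plus strand, next to the gene of the short-wavelength cone opsin. It had 3894 UMIs (251 CPM, 243 to 259) in the GFP+ and 749 UMIs (24.9 CPM, 23.1 to 26.7) in the GFP- library, a ratio of 10.1 (9.33 to 10.9). No other gene of the 10 was as high in the GFP- library.

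Ordered by level in the GFP+ library, the genes ran *Rpgrip1*, *Cdhr1*, *Ccdc136*, *Tulp1*, *Abca4*, *Rd3*, *Aipl1*, *Rom1*, *Fam161a* and *Prph2*. Of the neighbours in that order, only *Rd3* and *Aipl1* had overlapping intervals. The levels span the range from a gene found in 72.8% of GFP+ cells (*Rpgrip1*, 71.3 to 74.2%) to a gene found in 1.0% of them (*Prph2*, 0.707 to 1.38%).

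The GFP- cells carried more UMIs than the GFP+ cells, so shares were also taken after each cell was thinned to 3200 UMIs, which left out 579 GFP+ and 28 GFP- cells. At that depth *Rpgrip1* was found in 64.8% of GFP+ cells (63.1 to 66.4%) and *Cdhr1* in 60.6% (58.8 to 62.3%). *Ccdc136* was found in 46.8% (45.0 to 48.5%), *Tulp1* in 44.1% (42.3 to 45.8%) and *Abca4* in 27.7% (26.1 to 29.3%), where all UMIs gave 52.6, 50.7 and 31.4%. *Rd3* was found in 10.9% (9.83 to 12.0%), *Aipl1* in 9.81% (8.78 to 10.9%) and *Rom1* in 6.27% (5.44 to 7.18%), where all UMIs gave 13.5, 11.7 and 8.16%. *Fam161a* was found in 3.76% (3.12 to 4.49%) and *Prph2* in 0.740% (0.469 to 1.11%).

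A share of cells with a UMI was read against the multipotent-RPC-like cells of the GFP- library, dividing cells that should lack photoreceptor transcripts. These 1849 cells had a median of 9230 UMIs, and 1835 of them were deep enough to be thinned. There *Rpgrip1* was found in 0.763% (0.418 to 1.28%), *Abca4* in 0.436% (0.188 to 0.857%) and *Cdhr1*, *Rd3* and *Prph2* each in 0.0545% (0.00138 to 0.303%). *Aipl1* was found in 0.109% (0.0132 to 0.393%) and *Tulp1* in 1.47% (0.972 to 2.13%). In all 7 the GFP+ share stood above this background, although for *Prph2* by only a small margin. *Rom1* (2.02%, 1.42 to 2.77%), *Fam161a* (2.62%, 1.93 to 3.45%) and *Ccdc136* (5.23%, 4.26 to 6.35%) had the highest shares in these cells. The GFP+ shares of *Rom1* and *Ccdc136* still stood above them, with intervals apart. For *Fam161a* the intervals of the GFP+ cells and the progenitors overlapped, whereas over all GFP- cells its share was 2.17% (1.71 to 2.72%), below that of the GFP+ cells.

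Most GFP+ cells held transcripts of several of the 10 genes at once. With all UMIs, 98.5% of GFP+ cells (98.0 to 98.8%) had at least 1 of them, 70.5% (69.0 to 72.0%) had at least 3 and 13.0% (11.9 to 14.1%) at least 5. The highest number was 8, in 1 cell. At 3200 UMIs the mean was 2.75 genes per GFP+ cell and 0.180 per GFP- cell, and 57.8% (56.1 to 59.6%) of GFP+ cells but 0.595% (0.364 to 0.918%) of GFP- cells had at least 3.

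Both libraries were then clustered in 1 run, with the 10 genes left out of the variable genes, and clusters were named from marker lists. The clusters rest on the genes of these same cells, so levels by cluster are a description. Clusters 1, 2 and 8 were cone-like and held 3421 GFP+ cells (92.7%) and 197 GFP- cells (5.81%). Cluster 1 (1774 GFP+ cells) was led by *Pgc*, cluster 2 (1368 GFP+ cells) by *Fabp7*, a fatty acid binding protein, and cluster 8 (279 GFP+ cells) by *Slc7a3* and the stress response genes *Cebpb*, *Asns* and *Atf5*. Against all other cells, 9 of the 10 genes were at least 2-fold higher in the cone-like clusters, with ratios from 4.43 (*Rom1*) to 24.5 (*Cdhr1*), beside 20.1% of all genes. None was at least 2-fold lower, beside 15.7% of all genes. *Fam161a* stood at 11.0 and 6.95 CPM, a ratio of 1.58 (1.28 to 1.94).

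For all but *Rom1* these ratios were smaller than between the gates. The multipotent-RPC-like clusters 3 and 4 held 248 GFP+ cells, which counted among all other cells in these ratios. Most of these GFP+ cells carried cone markers: 87.9% had a *Gngt2* UMI and 84.7% a *Crx* UMI. *Gngt2* stood at 1823 CPM, within the range of the 3 GFP+ cone-like clusters, and *Crx* at 713 CPM, below it. In the same cells *Rpgrip1* stood at 497 CPM (460 to 537), *Cdhr1* at 267 CPM (240 to 296) and *Tulp1* at 198 CPM (175 to 224), all within that range. They held 654 of the 715 *Rpgrip1* UMIs outside the cone-like clusters, 351 of 359 for *Cdhr1* and 261 of 417 for *Tulp1*. The GFP- cells of clusters 3 and 4 had 2.06, 0.294 and 4.94 CPM of these genes, and 0.595% had a *Gngt2* UMI. When cell depth and cell cycle scores were not regressed out, the clusters of that name held 24 and 6 GFP+ cells.

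**Figure D2:**
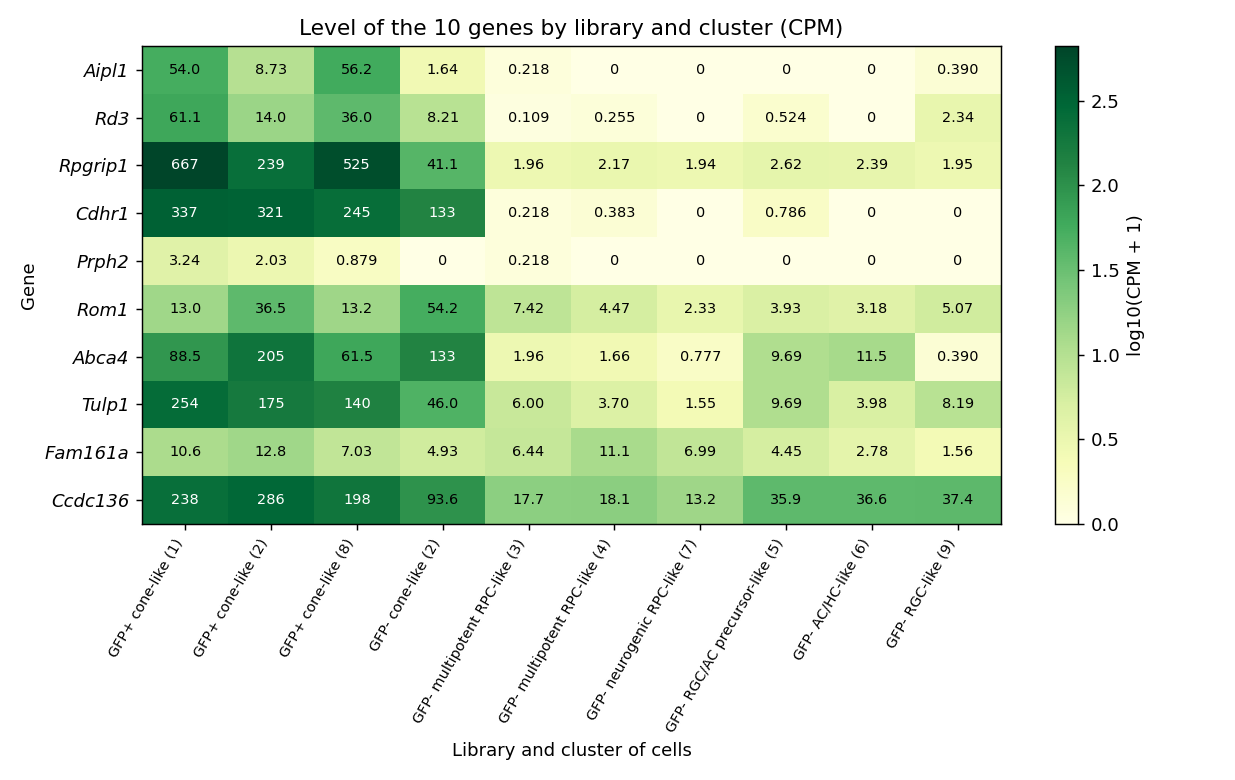
Level of each gene (rows, CPM printed in each cell, colour by log10 of CPM + 1) in cells of each library and cluster (columns, cluster number in brackets). For all but Rom1, which is highest in GFP- cluster 2 at 54.2 CPM, the highest level is in a GFP+ cone-like column, at 667 CPM for Rpgrip1 in cluster 1, while Rpgrip1, Rom1, Fam161a, Tulp1 and Ccdc136 are above 1 CPM in each column.

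Among GFP- cells outside the cone-like clusters the genes differed in how evenly their few UMIs were spread. *Rpgrip1* was nearly level over the 6 clusters, from 1.94 to 2.62 CPM. *Cdhr1* was at 0.786 CPM or less and *Aipl1* at 0.390 CPM or less in each. *Abca4*, by contrast, ran from 0.390 CPM in RGC-like cells to 11.5 CPM (7.72 to 16.6) in AC/HC-like cells. *Tulp1* ran from 1.55 CPM in neurogenic-RPC-like cells to 9.69 CPM (6.82 to 13.4) in RGC/AC-precursor-like cells, and *Ccdc136* from 13.2 CPM in neurogenic-RPC-like to 37.4 CPM (30.3 to 45.7) in RGC-like cells. *Fam161a* was highest in cluster 4, the progenitor cluster led by histone and mitotic genes, at 11.1 CPM (8.90 to 13.7), a level inside the interval of the GFP+ library. *Rom1* was highest in progenitor cluster 3, at 7.42 CPM (5.76 to 9.41). The cluster with the highest level thus differed between these genes, although *Abca4* and *Tulp1* were both at 9.69 CPM in RGC/AC-precursor-like cells. Of those cells, 11.4% had a *Crx* UMI. *Crx* stood at 30.4 CPM there, and in the other clusters at no more than 5.17 CPM (AC/HC-like). Which of those cells held the *Abca4* and *Tulp1* UMIs was not tested. Some highest places lay within counting error of others. *Ccdc136* also stood at 36.6 CPM (29.5 to 44.9) in AC/HC-like and 35.9 CPM (30.1 to 42.4) in RGC/AC-precursor-like cells. *Tulp1* also stood at 8.19 CPM (5.07 to 12.5) in RGC-like cells.

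Within the GFP- library, 197 cells fell in cone-like clusters and held 5.42% of the UMIs of their library but 411 of the 1752 UMIs of the 10 genes (23.5%). Not all of them carried cone markers: 50.8% had a *Crx* UMI and 23.4% a *Gngt2* UMI. In GFP+ cluster 1 these shares were 91.8% and 98.5%. The 94 GFP- cells in cluster 2 held 90 of the 100 cells with *Crx* and 37 of the 46 with *Gngt2*. Most of the other GFP- cells in cone-like clusters, 101 of them in cluster 1, thus had neither marker. Without the regression of depth and cell cycle scores, the largest cone-like cluster held 18 GFP- cells and the *Fabp7*-highest 103. For *Cdhr1* all 197 cells together held 87 of 95 UMIs (91.6%, 84.1 to 96.3%), for *Abca4* 85 of 185 (45.9%, 38.6 to 53.4%) and for *Rpgrip1* 51 of 112 (45.5%, 36.1 to 55.2%). For *Fam161a* they held 13 of 205 (6.34%, 3.42 to 10.6%), close to their share of all UMIs. In 145 GFP- cells with both a *Crx* and an *Otx2* UMI, *Abca4* stood at 102 CPM and *Cdhr1* at 94.3 CPM, against 3.09 and 0.240 CPM in the other GFP- cells. *Aipl1* had 1 UMI in the same 145 cells (1.07 CPM).

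Within the GFP+ cone-like cells the 10 genes did not move together. In *Fabp7*-high cluster 2, *Aipl1* stood at 8.73 CPM (6.60 to 11.3) against 54.0 CPM (48.5 to 59.9) in cluster 1, a ratio of 0.162 (0.120 to 0.215). *Rd3* stood at 14.0 against 61.1 CPM, a ratio of 0.230 (0.181 to 0.290), and *Rpgrip1* at 239 against 667 CPM, a ratio of 0.357 (0.337 to 0.379). *Rom1* went the other way, at 36.5 CPM (32.0 to 41.5) against 13.0 CPM (10.3 to 16.0), a ratio of 2.82 (2.19 to 3.66). *Abca4* did so too, at 205 against 88.5 CPM, a ratio of 2.32 (2.1 to 2.56). In all, 4 of the 10 were at least 1.5-fold lower in cluster 2, beside 13.2% of the 12937 genes tested, and 2 were at least 1.5-fold higher, beside 8.73%. The fourth of the lower genes was *Prph2*, whose ratio of 0.626 rests on 13 and 21 UMIs (0.288 to 1.31). *Tulp1* had a ratio of 0.690 (0.639 to 0.745).

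*Cdhr1* stood at 321 and 337 CPM, a ratio of 0.955 (0.899 to 1.01), which was 0.726 (0.670 to 0.786) without the regression of depth and cell cycle scores. *Fam161a* had a ratio of 1.20 (0.862 to 1.68) and *Ccdc136* of 1.20 (1.12 to 1.29). Among the genes that mark cones, *Gngt2* had a ratio of 0.706 and *Thrb*, the thyroid hormone receptor of cones, of 0.617, whereas *Crx* stood at 942 in cluster 2 and 753 CPM in cluster 1. Without the regression, the *Fabp7*-highest cluster held 519 GFP+ cells. There *Aipl1* stood at 2.78 CPM (1.20 to 5.48), against 38.7 CPM (35.1 to 42.6) in the largest cone-like cluster, a ratio of 0.0718. *Rom1* then had a ratio of 3.20 and *Abca4* of 2.06, while *Ccdc136* turned to the lower side (0.611, 0.555 to 0.672) and *Fam161a* to 0.973. *Tulp1* moved to 0.356 (0.313 to 0.405) and *Rpgrip1* to 0.185 (0.164 to 0.208), and with *Tulp1* and *Ccdc136* the genes at least 1.5-fold lower were 6 instead of 4. No share of all genes is given for this clustering, so the count of 6 is not read as a trait of these genes. The split of *Aipl1*, *Rd3* and *Rpgrip1* from *Rom1* and *Abca4* thus kept its direction in both clusterings.

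**Figure D3:**
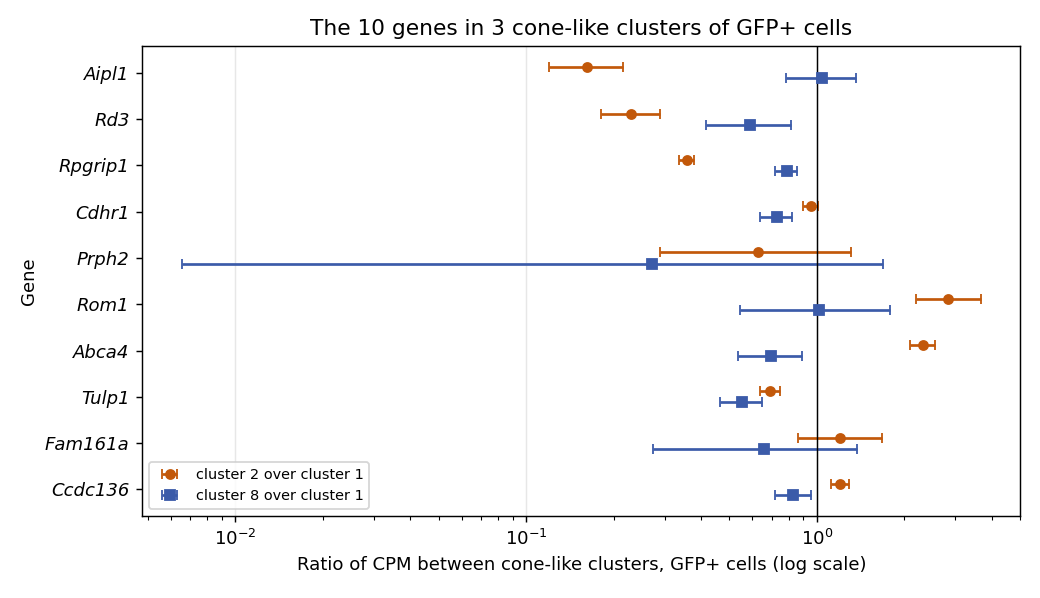
Ratio of CPM (log axis) of each gene in cluster 2 over cluster 1 (orange circles) and in cluster 8 over cluster 1 (blue squares), GFP+ cells only, with exact conditional 95% intervals that cover counting error only. Aipl1, Rd3 and Rpgrip1 lie at 0.162, 0.230 and 0.357 in cluster 2, and Rom1 and Abca4 at 2.82 and 2.32.

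The GFP- library had few cells of that kind. Its 94 cells in cluster 2 had a median of 6407.5 UMIs and stood at 1043 CPM of *Fabp7* and 698 CPM of *Crx*. *Abca4* stood there at 133 CPM (106 to 165), *Cdhr1* at 133 CPM (106 to 165) and *Rom1* at 54.2 CPM (37.3 to 76.1). *Rpgrip1* stood at 41.1 CPM (26.6 to 60.6), *Tulp1* at 46.0 CPM (30.6 to 66.5) and *Aipl1* at 1.64 CPM, from 1 UMI. Against the GFP+ cells of the same cluster, *Rpgrip1* had a ratio of 0.172 (0.111 to 0.255) and *Cdhr1* of 0.414 (0.327 to 0.517), whereas *Rom1* had 1.49 (0.999 to 2.15). The GFP- cells were thus lower in *Rpgrip1* than in *Abca4*, while GFP+ cluster 2 stood at 239 and 205 CPM. Without the regression, however, the *Fabp7*-highest GFP+ cells had the same order as the GFP- cells, with 104 CPM of *Rpgrip1* and 242 CPM of *Abca4*.

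In cluster 8, with its stress response genes, none of the 10 was at least 1.5-fold higher than in cluster 1, beside 11.3% of 12152 genes, and 4 were at least 1.5-fold lower, beside 13.0%. These were *Tulp1* (140 against 254 CPM, ratio 0.551, 0.465 to 0.648), *Rd3* (36.0 against 61.1 CPM, ratio 0.590, 0.417 to 0.815), and *Fam161a* and *Prph2* on 8 and 1 UMIs. *Aipl1* was level with cluster 1 (56.2 and 54.0 CPM, ratio 1.04, 0.785 to 1.36). The GFP- library had 2 cells in cluster 8.

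GFP+ cells were also ordered by the summed UMIs of 13 cone phototransduction genes, none of them among the 10, after thinning. *Gngt2* gave 51.9% of these UMIs, *Pdc* 20.1% and *Gnb3* 16.7%. The bottom quartile (794 cells) had up to 7 such UMIs and the top quartile (846 cells) 16 or more, with 160 and 139 cells exactly at the cuts. Of the 10 genes, 6 were at least 1.5-fold higher in the top than in the bottom quartile, beside 12.2% of 11711 genes, and 2 were at least 1.5-fold lower, beside 7.75%.

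*Aipl1* differed most, at 54.7 CPM (46.2 to 64.2) in the top and 13.8 CPM (9.59 to 19.2) in the bottom quartile, a ratio of 3.97 (2.73 to 5.91). *Rd3* had a ratio of 2.79 (1.97 to 4.03), *Tulp1* of 2.33 (2.04 to 2.67), *Rpgrip1* of 2.07 (1.9 to 2.27) and *Ccdc136* of 1.79 (1.60 to 2.00). The sixth, *Prph2*, had 10 and 5 UMIs, and its interval from 0.585 to 7.0 includes 1. *Rom1* was lower in the top quartile, at 17.7 against 29.9 CPM (ratio 0.593, 0.404 to 0.862), as was *Abca4*, at 112 against 179 CPM (ratio 0.625, 0.539 to 0.724). *Cdhr1* had a ratio of 1.31 (1.18 to 1.45) and *Fam161a* of 1.03 (0.617 to 1.71). Of the genes outside the list, *Crx* was level (ratio 1.02, 0.962 to 1.08). The cone gene *Thrb* was higher in the top quartile (ratio 1.40, 1.30 to 1.51). So was *Rxrg*, also a cone gene, at 266 against 212 CPM (interval of the ratio from 1.12 to 1.40). *Fabp7* (ratio 0.290, 0.265 to 0.318) and *Pcp4* (ratio 0.799, 0.675 to 0.945) were lower in CPM in the top quartile. The share of cells with a *Pcp4* UMI did not differ in that way, at 10.0% in the top and 9.70% in the bottom quartile. The bottom quartile included 730 cells of the cone-like clusters, and among cone-like cells alone 6 of the 10 were again at least 1.5-fold higher.

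**Figure D4:**
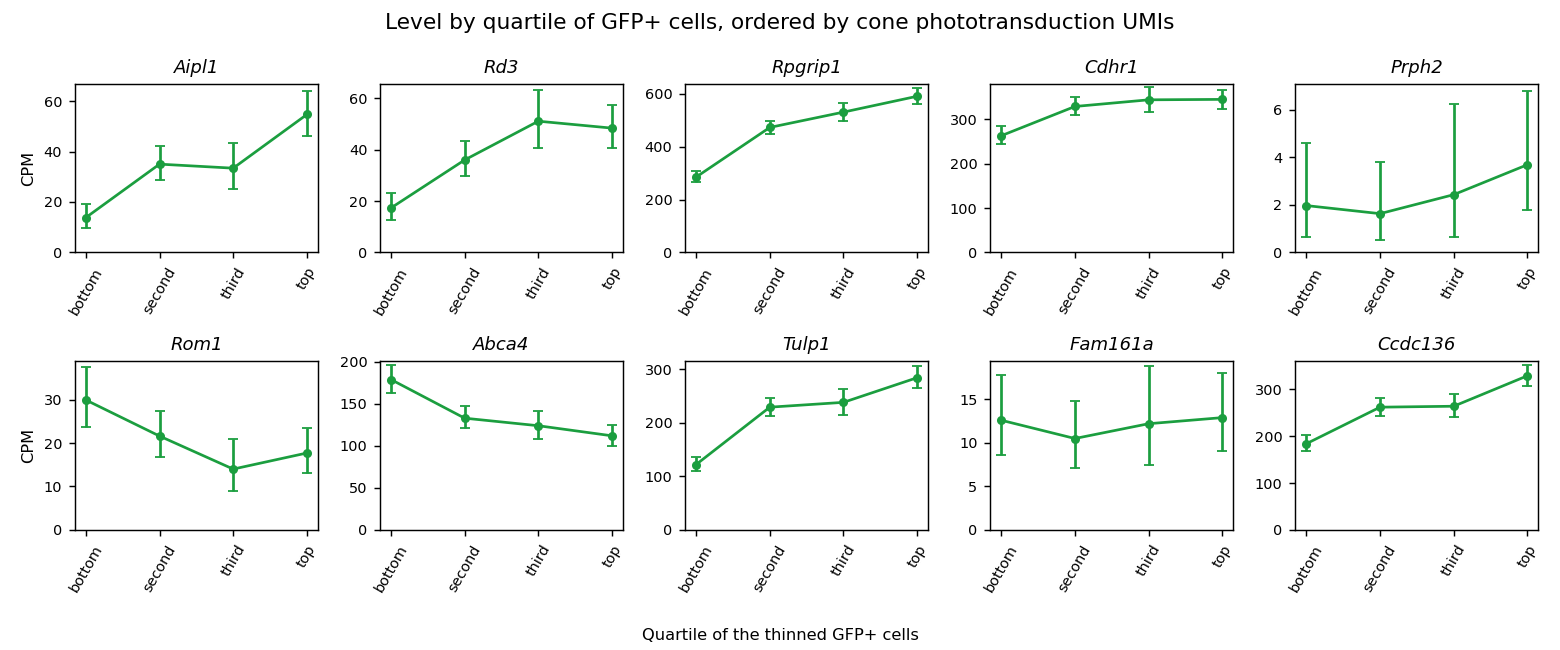
Level of each gene in CPM (each panel on its own axis from 0) in the 4 quartiles of thinned GFP+ cells ordered by UMIs of 13 cone phototransduction genes, with 95% exact Poisson intervals that cover counting error only. Aipl1 stands at 13.8 CPM in the bottom and 54.7 CPM in the top quartile, and Abca4 at 179 and 112 CPM.

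Splitting the thinned GFP+ cells by a UMI of another gene gave the same division for *Fabp7* and a different one for the opsin. Cluster 2 was itself led by *Fabp7* and drawn from the same cells, so the *Fabp7* split is no separate check. Cells with a *Fabp7* UMI (1199) had more *Rom1* (ratio 1.77, 1.34 to 2.34) and *Abca4* (1.66, 1.49 to 1.84) than cells without, the only 2 of the 10 at least 1.5-fold higher, beside 4.52% of genes. *Aipl1* (0.641, 0.503 to 0.813) and *Rd3* (0.651, 0.515 to 0.818) were the 2 at least 1.5-fold lower, beside 8.31%. Cells with a UMI of the rod gene *Nrl* (272) had 20.7 CPM of *Aipl1* against 36.0 CPM (ratio 0.574, 0.336 to 0.922) and 31.0 CPM of *Rom1* against 20.5 CPM (ratio 1.51, 0.972 to 2.28). In that split the intervals of *Abca4* (0.866, 0.703 to 1.06), *Rd3* (0.857, 0.561 to 1.26) and *Rpgrip1* (1.02, 0.918 to 1.13) included 1, like that of *Rom1*. *Ccdc136* was higher (1.22, 1.07 to 1.39). In cells with a *Pcp4* UMI (313) the ratios of the 10 lay between 0.742 (*Ccdc136*) and 1.37 (*Rd3*). Cells with a *Slc7a3* UMI (129) had more *Aipl1* (ratio 2.12, 1.40 to 3.11) than cells without, and less *Abca4* (0.482, 0.319 to 0.700), *Tulp1* (0.556, 0.413 to 0.734) and *Cdhr1* (0.651, 0.520 to 0.806). The fourth gene at least 1.5-fold lower, *Prph2*, had 0 UMIs in these cells and 24 in the others. No share of all genes is given for the *Slc7a3* split. In 156 GFP+ cells with *Otx2* but no *Gngt2* UMI, *Rpgrip1* stood at 192 CPM and *Abca4* at 190 CPM, against 487 and 136 CPM in *Otx2* cells with *Gngt2*.

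*Ccdc136* was read against the short-wavelength opsin gene *Opn1sw*. *Opn1sw* had 228 UMIs in the GFP+ (14.7 CPM) and 0 in the GFP- library, at least 148-fold higher against a floor of 3 counts, where the exact interval of the ratio begins at 119. The 105 thinned GFP+ cells with an *Opn1sw* UMI had 261 *Ccdc136* UMIs (777 CPM) and 81.9% of them (73.2 to 88.7%) had at least 1. The 3005 cells without had 243 CPM and 45.5% (43.7 to 47.3%). The ratio was 3.20 (2.80 to 3.64). Of the 10 genes it was the only one at least 1.5-fold higher, beside 13.7% of 12629 genes, and *Prph2*, at 0 and 24 UMIs, was the only one at least 1.5-fold lower, beside 22.3%. *Tulp1* had a ratio of 1.48 (1.21 to 1.80) and *Rpgrip1* of 1.23 (1.06 to 1.43). Among the 3836 genes of at least 50 CPM on either side of the split, *Ccdc136* ranked 2, behind *Opn1sw* itself.

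The share of cells with *Opn1sw* also differed with the number of *Ccdc136* molecules, and the ratio was read within clusters. Of 1656 cells without a *Ccdc136* UMI, 1.15% (0.692 to 1.79%) had an *Opn1sw* UMI, and of 843 cells with 1, 2.85% (1.83 to 4.21%) did. With 2 the share was 5.18% (3.05 to 8.17%), with 3 to 4 it was 13.0% (8.89 to 18.1%), and with 5 or more, in 60 cells, 26.7% (16.1 to 39.7%). The *Ccdc136* ratio between cells with and without *Opn1sw* was 2.99 (2.46 to 3.62) in cluster 1, 3.32 (2.71 to 4.04) in cluster 2 and 4.52 (2.51 to 7.60) in cluster 8. The value for cluster 8 rests on 6 cells with *Opn1sw*, which held 16 *Ccdc136* UMIs. The genes are neighbours on opposite strands of chromosome 6, 7841 bases apart.

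**Figure D5:**
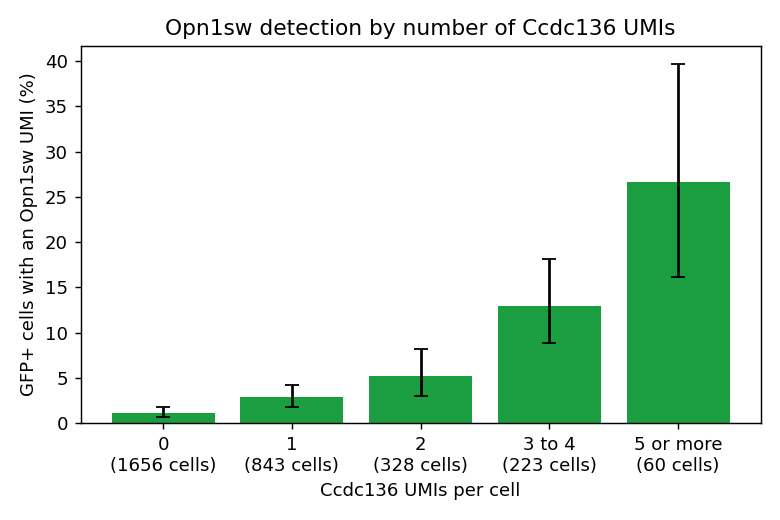
Share of thinned GFP+ cells with an Opn1sw UMI (percent, axis from 0) by the number of Ccdc136 UMIs in the cell, with the number of cells below each bar and 95% exact Clopper-Pearson intervals. The share is 1.15% in cells without a Ccdc136 UMI and 26.7% in cells with 5 or more.

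Correlations of detection between the 10 genes in the same cone-like cell were small, and sparse detection limits how large they can be. Over the 45 pairs and 2894 thinned GFP+ cone-like cells, the correlation of detection lay between -0.09 and 0.13, too weak in sparse counts to read as a finding. The shares give the size. Of cells with an *Aipl1* UMI, 18.8% had *Rd3*, against 10.3% of cells without. Of cells with an *Abca4* UMI, 57.9% had *Rpgrip1*, against 67.5% without, and 7.37% had *Aipl1*, against 10.9% without.

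Over the 9 clusters, the genes most like each of the 10 were found by the correlation of log2(CPM + 1) among 4888 or 4889 genes with at least 50 CPM in a cluster, a description over 9 points that share libraries and cells. *Cdhr1* was closest to the cone phototransduction genes *Cngb3*, *Gngt2* and *Pdc* (r = 0.994 for each). *Rpgrip1* was closest to *Dnaic1* (0.999), *Samsn1* (0.996) and *Rbp4* (0.995), *Rd3* to *1190005I06Rik* (0.992), *March1* (0.990) and *Rnf220* (0.982), and *Aipl1* to *C1ql3* (0.987), *Birc6* (0.984) and *Adrb1* (0.984). *Tulp1* was closest to *Dmd* (0.988), *Cntn1* (0.982) and *Thrb* (0.981), *Ccdc136* to *Tecpr1* (0.992), *Gcc2* (0.989) and *Ahcyl2* (0.989), and *Abca4* to *Mettl23* (0.970), *Rgr* (0.968) and *Neurod4* (0.965). The lowest likeness was for *Prph2*, closest to *Phpt1* (0.964), *Ufsp2* (0.959) and *Gm5914* (0.948), for *Rom1*, close to *Abhd17a* (0.958) and *Rasa4* (0.928), and for *Fam161a*, closest to *Wdr89* (0.955), the progenitor gene *Rax* (0.948) and *Ubn1* (0.943).

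Known partners of the 10 proteins were present to very different degrees. *Pde6c*, the cone phosphodiesterase subunit that Aipl1 folds, had 411 UMIs (26.5 CPM) in the GFP+ library and 1 UMI in the GFP- library, while its small cone subunit *Pde6h* had 0 and 2 UMIs. The phosphodiesterase gene *Pde6g*, also on the list of partners, had 256 UMIs (16.5 CPM) and 10 UMIs (ratio 49.7, 26.6 to 105). The guanylate cyclases that Rd3 binds were scarce, *Gucy2e* with 13 UMIs (0.839 CPM) and *Gucy2f* with 1 in the GFP+ library, where *Rd3* itself had 559. *Rpgr*, held by Rpgrip1, stood at 38.8 and 23.6 CPM (ratio 1.64, 1.47 to 1.83), beside a ratio of 123 for the scaffold itself. *Prom1*, a disc protein that Cdhr1 binds, stood at 128 and 23.2 CPM (ratio 5.54, 5.08 to 6.04). *Rdh12*, which reduces retinal, stood at 5.03 and 0.930 CPM (ratio 5.41, 3.47 to 8.65), and *Rdh8* had no UMI in either. Of the 15 partners with at least 10 UMIs, 7 (46.7%) were at least 2-fold higher in the GFP+ library, beside 23.0% of all genes. Another 3 were at least 2-fold lower, a side for which no share of all genes is given. The lower ones were *Tub* (4.84 and 16.4 CPM), a relative of Tulp1, and the cyclase activators *Guca1a* and *Guca1b*, on 7 and 1 GFP+ UMIs.

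Other genes of inherited retinal disease were read from 6 lists by role, also chosen with earlier results of these data known. In them, 97 genes had at least 10 UMIs. Of these, 43 (44.3%) were at least 2-fold higher in the GFP+ library, beside 23.0% of all genes, and 13 were at least 2-fold lower, with no share of all genes to set beside them. Their median log2 ratio was 0.75. Phototransduction and visual cycle genes were mostly higher (19 of 25, median log2 ratio 3.76), led by *Opn1sw*, *Pde6c* and the channel subunit *Cnga3* (ratio 428, 118 to 3545). Lowest in that list were *Rlbp1*, a retinal-binding protein of glia (0.129 and 1.66 CPM), and *Guca1b*. In contrast, 11 of 38 genes of the cilium and its transport were higher, with a median log2 ratio of 0.59. They were led by *Rp1l1*, with 82 and 0 UMIs (at least 53.1-fold higher against the floor, with an exact interval from 42.2), *Mak*, a kinase of the cilium (ratio 81.7, 55.9 to 125), and *Unc119* (ratio 10.5, 10.1 to 11.0). *Tub* (ratio 0.295) and *Arl3* (ratio 0.618) were lowest.

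For the lists that follow, the share of all genes at least 2-fold higher was again 23.0%, and none is given for the lower side. Of the 12 tested genes in the list for discs and outer segment structure, 4 (33.3%) were higher and 4 lower. That list is mixed, and on the higher side as on the lower side not all of its genes are components of the disc. The lower genes were *Crb1*, *Crb2*, *Efemp1* and *Tspan12*. The split therefore does not describe disc genes alone. *Mpp4* (ratio 361, 64.0 to 14336, on 186 and 1 UMIs), *Elovl4* (9.25, 8.63 to 9.94) and *Prom1* were highest, and *Crb1* (0.116, 0.0699 to 0.182) and *Efemp1* (0.351, 0.249 to 0.483) were lowest. Of 8 Usher syndrome genes, 4 were higher, among them *Pcdh15* (ratio 74.5, 54.2 to 105) and *Myo7a* (ratio 32.4, 10.5 to 162), and 3 were lower, with *Clrn1* (ratio 0.0693, 0.00819 to 0.262) and *Ush1c* (ratio 0.102, 0.00246 to 0.643) lowest. Of 8 transcription factors, 5 were higher, led by *Nrl* (ratio 48.8), *Crx* (ratio 40.0) and *Nr2e3*, with 10 and 0 UMIs (at least 6.47-fold higher against the floor, with an exact interval from 4.35), and *Prdm13* (ratio 0.0778) and *Nr2f1* (ratio 0.269) were lowest. None of the 6 pre-mRNA splicing factors passed 2-fold in either direction, with ratios from 0.753 (*Prpf31*) and 0.980 (*Prpf3*) up to 1.22 (*Snrnp200*) and 1.37 (*Prpf6*). *Fam161a*, at a log2 ratio of 0.73, stood near the median of the ciliary list, whereas *Rpgrip1*, of the same compartment, stood above all tested ciliary genes whose ratio could be computed.

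The genes beside the 10 were read in the same way. Of 20 flanking genes, 17 had at least 10 UMIs, and 6 of these were at least 2-fold higher in the GFP+ library, beside 23.0% of all genes. They were *Opn1sw* beside *Ccdc136*, *Lrit2* beside *Cdhr1* (16.3 and 0.199 CPM, ratio 81.5, 36.9 to 224), *Traf5* beside *Rd3* (ratio 7.86), *Tead3* beside *Tulp1* (ratio 5.69), *Gclm* beside *Abca4* (ratio 2.60) and *Eml3* beside *Rom1* (ratio 2.24). *Fam64a*, 4523 bases from *Aipl1*, was lower (3.16 and 72.0 CPM). No annotated gene overlapped any of the 10 on the same strand. On the opposite strand, *Supt16* overlaps *Rpgrip1* (44.4 and 65.8 CPM) and *Gm26670* overlaps *Rd3* (22.8 and 12.1 CPM). *Lrit2*, 4114 bases from *Cdhr1* on the opposite strand, was the only flanking gene besides *Opn1sw* with a ratio above 10.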

How the data were processed

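The deposited matrices hold raw UMI counts, made by the authors with Cell Ranger 2.1.1 on mm10 from 10x 3′ libraries, for the barcodes called as cells. Cells were kept if they had over 250 and under 3500 genes and less than 0.25 of their UMIs from mitochondrial genes, the study's printed limit being read as a fraction. The count depth is given in the report and sets the counting precision. Scrublet (scanpy 1.11.5, expected rate 0.03) marked as doublets 3 GFP+ (0.0805%) and 55 GFP- (1.24%) barcodes. Of these, 2 and 0 passed the filter and were left in. The low GFP+ call rate means that doublets there were not assessed.

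Clusters were made in Seurat 5.3.0 (30 PCs, UMIs, genes and cell cycle scores regressed out, the lowest resolution giving 9 clusters, 0.3). For medians, 0.5 was added to each sum. Calls used at least 10 UMIs over the compared groups. TMM factors came from edgeR 4.0.16. Ratios and intervals were tested on simulated data with Python 3.11.15 and scipy 1.17.1.

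The members and gene lists were chosen with earlier results of these data known. All 10 are reported, and of each other list the 3 highest and 2 lowest ratios, the 3 most alike genes and the flanking genes. A few genes that this rule names are not reported here. *Gucy2e*, *Gucy2f*, *Rpgr*, *Rdh12*, *Rdh8*, *Pde6h* and *Guca1a* were named after their values were seen. Alternatives were other filters, scalings, depths, clusterings and cuts.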

Additional observations from a re-analysis of the deposited data

How the results depend on the processing

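The counts of genes past a fold stayed within 1.5 times under each alternative run. Between the gates, 9 of the 10 genes were at least 2-fold higher, except that 8 were as mean UMIs per cell. With at least 50 UMIs asked of a gene, *Prph2* fell out and 8 of the 9 genes tested were. Of the other disease genes, 33 to 43 were at least 2-fold higher. The share of all genes past that fold moved too, from 23.0% to 16.4% with TMM factors and 7.91% as mean UMIs per cell. The lowest count of disease genes, 33, was on that last scale. In the cone-like clusters the number was 9, or 7 with GFP- cells only, and between quartiles of the cone score it was 5 to 7. For both of these the share of all genes is given above for the main run only. The median log2 ratio of the 10 genes, 4.95, was 3.87 as mean UMIs per cell, a scale on which the median of all genes moved from 0.30 to -0.78, and with TMM factors it was 4.65 where all genes had 0.00. The mean number of the 10 genes found per GFP+ cell, 2.75, was 3.15 with all UMIs and 2.06 at 2000 UMIs, by construction of the depth. The ratio of *Fam161a* between the gates turned to 0.784 as mean UMIs per cell. Between *Fabp7*-high and largest cone-like clusters, *Fam161a* turned to 0.973 and *Ccdc136* to 0.611 without the regression, and neither turned with thinned or G1 cells, alternatives chosen after seeing the data. The cause was not tested. Between the gates, the ratio of *Cdhr1* (99.6) ran from 47.1 as mean UMIs per cell, 58.4 as mean of per-cell values and 61.3 with thinned cells to 140 without the upper limit on genes. That of *Rpgrip1* (123) ran from 58.3 to 153 under the first and last of these, *Aipl1* (247) had 124 with thinned cells, and *Rom1* (3.61) had 1.71 as mean UMIs per cell, under 2-fold. No paired analysis was possible because each gate has 1 library. Depth limits *Prph2* most, with 38 GFP+ UMIs.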
